A study of Homo sapiens with 12 samples.

Results

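Darglitazone was compared with its solvent DMSO in 8 of the 12 libraries of a study of thiazolidinediones in acute myeloid leukaemia. The members were chosen by the treatment given in the labels: 4 darglitazone libraries and 4 DMSO libraries, each group holding the established human leukaemia lines KG-1a, MOLM-14, MV4-11 and OCI-AML3. Darglitazone was given at 10 µM for 12 h, DMSO for the same 12 h, and the other 4 libraries of the study came from pioglitazone at 10 µM for 12 h. Each line had 1 library per treatment, so the line served as the replicate (n = 4 lines) and paired the libraries. Nothing in the labels says whether a culture was repeated, and values of single lines rest on 1 library per treatment. The lines grew alone, without marrow stroma or other host cells, as far as the labels say.

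Thiazolidinediones bind the nuclear receptor PPARγ, which with its partner RXR switches on genes of lipid uptake, storage and oxidation and is best known from fat cells and macrophages. At higher concentrations drugs of this class are also known to bind mitochondrial proteins, among them mitoNEET and the mitochondrial pyruvate carrier, and to act on cells that lack the receptor. NRF2 is a transcription factor that the adaptor KEAP1 holds at low levels. Electrophiles and oxidants release it, and it then drives haem oxygenase, ferritin, quinone reductase and glutathione genes through the antioxidant response element (ARE).

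Libraries were made from total RNA with ribosomal RNA removed. Total counts ran from 4.77 M to 64.24 M over the 8 libraries, a 13.5-fold range, and the treatments were not balanced for depth. With darglitazone MOLM-14 had 9.42 M counts, OCI-AML3 20.27 M, MV4-11 32.2 M and KG-1a 4.77 M, against 30.2 M, 64.24 M, 8.97 M and 8.72 M with DMSO. A floor of 3 counts, below which a level was not told from 0, stood for 0.629 CPM (counts scaled to a common library size) in the KG-1a darglitazone library and 0.047 CPM in the OCI-AML3 DMSO library. These floors cover counting error only. PTPRC, which encodes the leucocyte antigen CD45, lay between 136 and 465 CPM with darglitazone and between 100 and 483 CPM with DMSO, and SPI1, which encodes the myeloid factor PU.1, between 116 and 218 CPM and between 99.1 and 206 CPM. The 19 stem and progenitor markers summed to 1500 CPM with darglitazone and 1540 CPM with DMSO in KG-1a, against 202 to 269 CPM and 197 to 233 CPM in the other lines. The 28 monocyte and macrophage markers summed to 564 to 2330 CPM with darglitazone and 622 to 2770 CPM with DMSO, with the highest sums in MV4-11. CD14, a defining monocyte marker, was at 0 to 6.64 CPM with darglitazone and at 0 to 1.61 CPM with DMSO. The 17 granulocyte markers summed to 213 to 2250 CPM and 194 to 2620 CPM, and the 18 lymphoid markers to 108 to 332 CPM and 104 to 315 CPM. The 18 erythroid and megakaryocyte markers summed to 10.3 to 232 CPM and 12.4 to 327 CPM, and the 13 stromal and epithelial ones to 25.2 to 105 CPM and 24.3 to 106 CPM. The haemoglobin genes HBB and HBA1 were at 0 counts in all 8 libraries. The KG-1a darglitazone library held genes specific to MV4-11 at a median of 3.944% of their MV4-11 level (6 genes), against 0.695% in the KG-1a DMSO library. Genes specific to MOLM-14 stood at 1.289% in the MV4-11 darglitazone library and 2.189% in the MV4-11 DMSO library (4 genes). Those specific to OCI-AML3 stood at 0.133% in the MV4-11 darglitazone library and 1.51% in the MV4-11 DMSO library (12 genes). Values from KG-1a are therefore given again below with the other lines' reads subtracted, or without that library, where they bear on a result. For MV4-11 a subtracted value is given for CXCL8 alone.

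No gene passed the test over all genes. Of 15424 genes tested with edgeR's quasi-likelihood model of line and treatment, 0 were called higher and 0 lower with darglitazone at a Benjamini-Hochberg adjusted p under 0.05 (0% called). The smallest adjusted p was 0.33, shared by HMOX1 and FTL. Unadjusted p-values under 0.05 fell on 271 genes with higher values (1.76%) and 254 with lower values (1.65%), 525 in either direction (3.4%). The line ratio was above 0 in all 4 lines for 1091 genes (7.07%) and below 0 in all 4 for 1084 genes (7.03%). DESeq2 with the same model called 4 genes higher (0.0259%) and 2 lower (0.013%), 6 in all (0.0389%). At an unadjusted p under 0.05 it had 342 higher (2.22%) and 300 lower (1.95%), 642 in all (4.16%). It called HMOX1, FTL, NQO1 and a pseudogene entry, CKS1BP3, higher, and LDHA and MLC1 lower. limma-voom also called 4 higher (0.0259%) and 2 lower (0.013%), 6 in all (0.0389%), and shared HMOX1 and FTL with DESeq2. It had 726 higher (4.71%) and 665 lower (4.31%) at an unadjusted p under 0.05, 1391 in all (9.02%). In what follows "higher" and "lower" describe values, fold changes are log2 ratios of darglitazone over DMSO with the standard error (SE) of the edgeR fit over 4 lines, and every adjusted p not printed is that of edgeR and lies at 0.746 or above.

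The 2 genes with the smallest adjusted p belong to the haem and iron branch of the NRF2 targets. HMOX1 encodes haem oxygenase, which opens the haem ring and releases its iron (GRCh38 chromosome 22, 35380361 to 35394214, plus strand). It had 2.13 CPM with darglitazone and 0.694 CPM with DMSO in MOLM-14, 3.41 and 0.641 CPM in OCI-AML3, 20.1 and 2.17 CPM in MV4-11, and 6.27 and 1.81 CPM in KG-1a. The level was higher with darglitazone in each line, but the groups overlapped across lines, with 2.13 CPM in MOLM-14 with darglitazone and 2.17 CPM in MV4-11 with DMSO. The fold change was 2.24 (SE 0.38, 95% confidence interval 1.43 to 3.06, edgeR adjusted p 0.33, DESeq2 adjusted p 0.000453), and without the filter on low counts the edgeR adjusted p was 5.48e-05. The values rest on few reads: MOLM-14 had 20 counts with darglitazone and 21 with DMSO, OCI-AML3 had 72 and 43, MV4-11 had 659 and 21, and KG-1a had 30 and 16. Without the KG-1a darglitazone library the fold change was 2.33.

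FTL encodes the light chain of ferritin, the shell that stores iron (chromosome 19, 48965301 to 48966878, plus strand). It had 1620 CPM with darglitazone and 1200 CPM with DMSO in MOLM-14, 2700 and 1810 CPM in OCI-AML3, 6190 and 4020 CPM in MV4-11, and 2100 and 1570 CPM in KG-1a. The line ratios were close to one another (SD 0.10), although the groups overlapped in level. The fold change was 0.51 (SE 0.09, interval 0.32 to 0.70, edgeR adjusted p 0.33, DESeq2 adjusted p 0.00139). FTH1, the ferritin heavy chain gene, had a fold change of 0.82 (SE 0.26) and line ratios of 0.41 in MOLM-14, 1.27 for OCI-AML3, 1.16 for MV4-11 and 0.60 for KG-1a, which is the order of every set of 4 line values below. Ferritin genes have many processed copies in the genome, and the sources used here do not say how the authors' estimated counts divided reads among them.

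NQO1 encodes a quinone reductase that is a classical NRF2 target (chromosome 16, 69706996 to 69726951, minus strand). Its levels were 35.1 CPM with darglitazone and 22.5 CPM with DMSO in MOLM-14, 109 and 67.5 CPM in OCI-AML3, 108 and 41.0 CPM in MV4-11, and 10.9 and 5.53 CPM in KG-1a. Each line was higher with darglitazone, MV4-11 by the most, and the fold change was 0.89 (SE 0.18, interval 0.51 to 1.27, edgeR adjusted p 0.746, DESeq2 adjusted p 0.0233). In KG-1a the log2 ratio was 0.96 as counted and 0.54 after the reads of other lines were subtracted. Both FTL and NQO1 stood higher in MV4-11 than in KG-1a, and the KG-1a ratio of FTL was 0.42 as counted and 0.33 after subtraction.

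**Figure D1:**
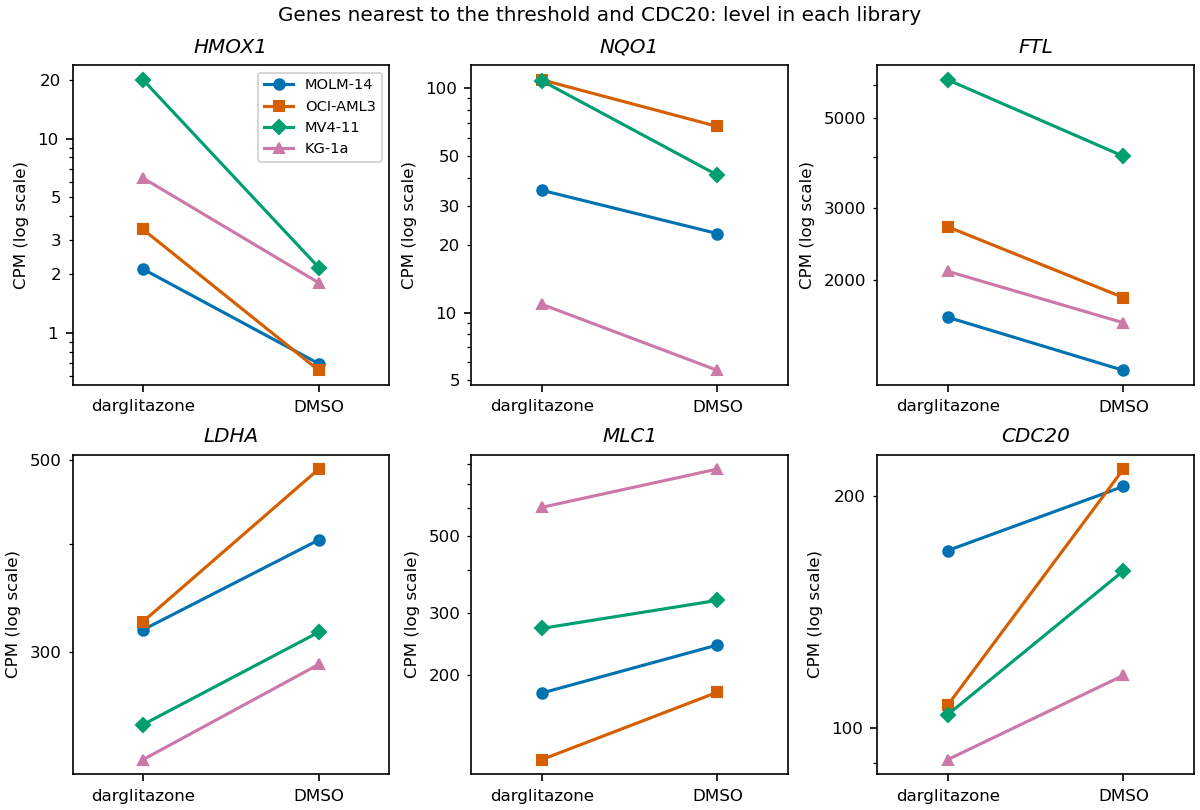
Level of 6 genes in each library, in CPM on a log axis, with darglitazone on the left and DMSO on the right and a line joining the 2 libraries of a cell line. HMOX1, NQO1 and FTL stood higher with darglitazone in all 4 lines, with HMOX1 at 20.1 against 2.17 CPM in MV4-11, and LDHA, MLC1 and CDC20 stood lower in all 4.

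Over the 28 NRF2 targets listed, 27 were tested, 25 had a positive fold change, and the median was 0.39, against 0.01 over all genes tested. Of the 27, 15 had an unadjusted p under 0.05 with a higher value, where the share over all genes was 1.76%, and 0 had one with a lower value. In 14 of 27 the ratio was above 0 in each of the 4 lines, where 7.07% of all genes were. The list medians of the 4 lines were 0.13, 0.58, 0.49 and 0.17. The median of the fitted values was 0.45 without the KG-1a darglitazone library and 0.28 without the OCI-AML3 darglitazone library. All 4 lines had a positive median, with the smaller ones in MOLM-14 and KG-1a. The list was chosen with earlier results of these libraries known and is no independent evidence of its direction.

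Iron and haem transport genes at an unadjusted p under 0.05 were also higher. SLC48A1, a transporter that moves haem out of lysosomes, had a fold change of 0.59 (SE 0.17), with line ratios of 0.75, 0.46, 1.13 and 0.02. SLC25A37, the mitochondrial iron importer, had 0.33 (SE 0.13) with ratios of 0.08, 0.46, 0.34 and 0.48. Of 14 iron handling genes tested, 4 had an unadjusted p under 0.05 with a higher value, namely HMOX1, FTL, FTH1 and SLC25A37, where 1.76% of all genes did. The first 3 are also counted among the NRF2 targets, and 0 iron handling genes had such a p with a lower value. The list as a whole was split, 7 positive and 7 negative, with a median of 0.06.

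Other NRF2 targets serve glutathione, thioredoxin and NADPH supply. GCLM encodes the modifier subunit of the enzyme that starts glutathione synthesis. Its levels were 22.2 CPM with darglitazone and 15.8 CPM with DMSO in MOLM-14, 33.4 and 32.0 CPM in OCI-AML3, 31.6 and 16.1 CPM in MV4-11, and 15.5 and 13.2 CPM in KG-1a. The ratio was positive in each line and near 0 in OCI-AML3, and the fold change was 0.44 (SE 0.17). ME1, the cytosolic malic enzyme that supplies NADPH, had 1.12 (SE 0.47) and was at 0 counts in both KG-1a libraries. TXNRD1, thioredoxin reductase, had 0.29 (SE 0.12) with a KG-1a ratio of -0.07. SRXN1, sulfiredoxin, had 0.25 (SE 0.19), with ratios of -0.09, 0.64, 0.49 and -0.09. SLC7A11, the cystine importer, was at 309 CPM with darglitazone and 97.0 CPM with DMSO in OCI-AML3, a log2 ratio of 1.67, but its ratios in MOLM-14 and MV4-11 were -0.44 and -0.02. Its fold change was 0.39 (SE 0.39), and 0.08 without the OCI-AML3 darglitazone library. Members chosen after their values were seen are PIR, an iron-binding nuclear protein gene, at 0.90 (SE 0.32) and positive in each line, OSGIN1, a stress-induced growth inhibitor gene, at 1.09 (SE 0.44) and positive in each line, and SQSTM1, the autophagy adaptor p62, at 0.49 (SE 0.22) with an OCI-AML3 ratio of 1.49.

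The sequence before the transcription start of 2 of these genes is shown because, among the windows searched, both hold the letters by which NRF2 is known to be bound. The windows are the 250 bases before the start in RefSeq's GRCh38.p14 annotation, printed 5′ to 3′ on the gene's strand with the ARE core TGACNNNGC, searched on both strands, in capitals. The GCLM window is chr1:93909431-93909680 on the minus strand, with its match 34 to 26 bases before the start, and the ME1 window is chr6:83431052-83431301 on the minus strand, with its match 137 to 129 bases before it.
GCLM: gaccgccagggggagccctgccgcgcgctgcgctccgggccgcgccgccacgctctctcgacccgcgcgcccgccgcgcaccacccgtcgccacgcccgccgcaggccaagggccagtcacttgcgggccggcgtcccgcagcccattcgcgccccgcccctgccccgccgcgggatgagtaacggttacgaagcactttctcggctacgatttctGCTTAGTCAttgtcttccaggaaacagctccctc
ME1: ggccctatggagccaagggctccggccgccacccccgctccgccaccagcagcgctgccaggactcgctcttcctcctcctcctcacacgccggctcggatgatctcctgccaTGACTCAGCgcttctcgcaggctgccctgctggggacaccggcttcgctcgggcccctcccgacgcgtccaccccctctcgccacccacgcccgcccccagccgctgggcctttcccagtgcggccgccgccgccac
Among the NRF2 targets with a window in the table, 6 of 20 held the core, against 13.2% of 27305 genes. Both windows of TXNRD1, not printed, also held the core, 99 to 91 and 102 to 94 bases before their starts. The windows of FTL, NQO1 and PIR did not hold these letters, and HMOX1 has no entry in the table used. The share is a description of these letters in these windows and does not show binding.

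Of the 6 tested genes that control NRF2 itself, 5 had a positive and 1 a negative fold change, with a median of 0.13, and 0 had an unadjusted p under 0.05. NFE2L2, which encodes NRF2 and was chosen after its values were seen, had a fold change of 0.04 (SE 0.17). KEAP1 had 0.25 (SE 0.16), with ratios of 0.04, 0.68, 0.09 and 0.14. BACH1, a repressor that competes at ARE sites and is known to keep HMOX1 off, had 0.20 (SE 0.13), and CUL3, the ubiquitin ligase scaffold that works with KEAP1, had -0.25 (SE 0.15).

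**Figure D2:**
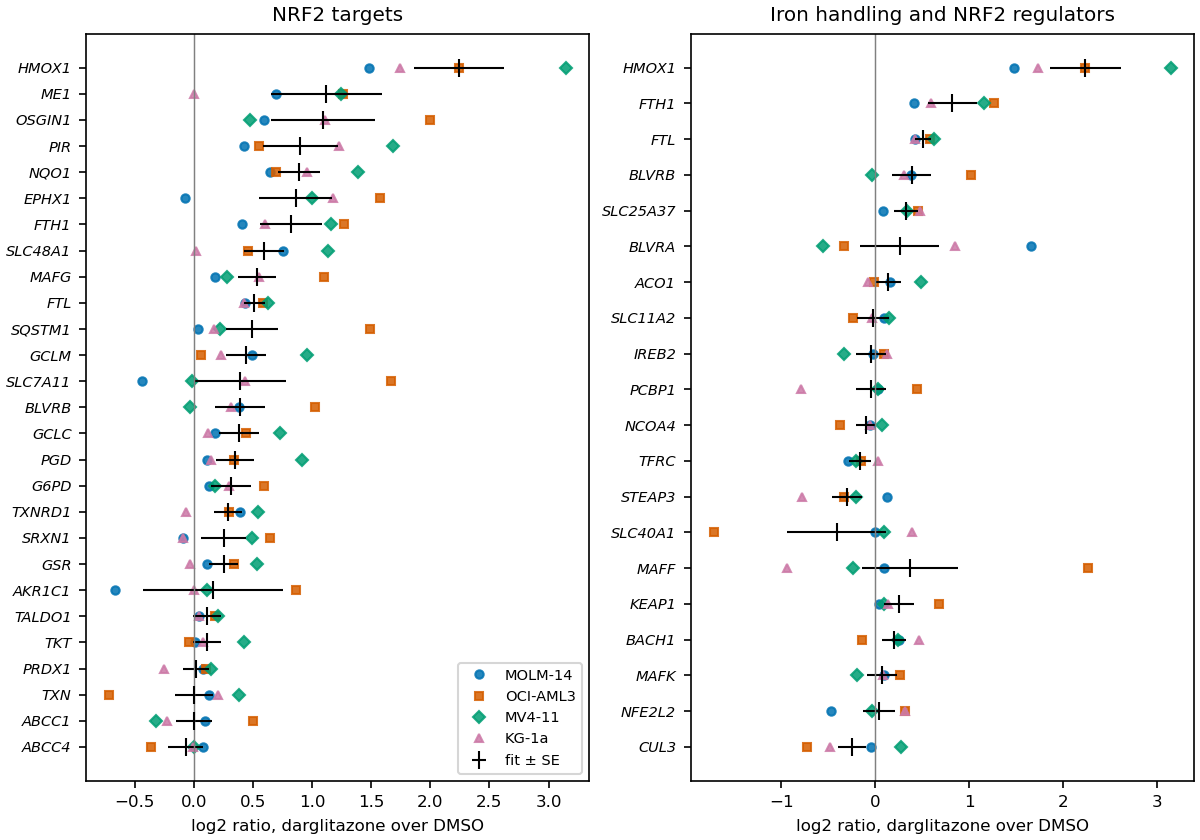
Log2 ratio of darglitazone over DMSO for each tested NRF2 target on the left, and for iron handling genes followed by NRF2 regulators on the right. Coloured points are the 4 lines, and black marks with bars are the fitted fold change ± SE. HMOX1 lies at 2.24, the other targets spread between -0.07 and 1.12, and MV4-11 and OCI-AML3 carry most of the highest points.

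Against this, LDHA was lower in every line. LDHA encodes the lactate dehydrogenase subunit that turns pyruvate into lactate (chromosome 11, 18394388 to 18408425, plus strand). It had 318 CPM with darglitazone and 404 CPM with DMSO in MOLM-14, 325 and 488 CPM in OCI-AML3, 247 and 316 CPM in MV4-11, and 225 and 290 CPM in KG-1a. The fold change was -0.41 (SE 0.09, interval -0.62 to -0.21, edgeR adjusted p 1.0, DESeq2 adjusted p 0.000686). The ratio was lowest in OCI-AML3, at -0.59, and lay between -0.37 and -0.34 in the other lines. MLC1, the membrane protein gene best known from astrocytes (chromosome 22, 50059391 to 50085902, minus strand), was the other gene that DESeq2 called lower. It had 178 CPM with darglitazone and 244 CPM with DMSO in MOLM-14, 115 and 179 CPM in OCI-AML3, 272 and 327 CPM in MV4-11, and 602 and 774 CPM in KG-1a, a fold change of -0.43 (SE 0.10, edgeR adjusted p 1.0, DESeq2 adjusted p 0.00334).

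Other steps of glycolysis were split in direction. Of 24 tested glycolysis and lactate genes, 11 were positive and 13 negative, the median was -0.03, and 6 were below 0 in each of the 4 lines, where 7.03% of all genes were. In MOLM-14 19 of the 24 were lower, in KG-1a 18 and in MV4-11 14, whereas in OCI-AML3 14 were higher and the median ratio was 0.20. At an unadjusted p under 0.05 the list held 2 lower genes, LDHA and PDK1, where 1.65% of all genes were lower. It held 1 higher gene, ALDOC, where 1.76% of all genes were higher. PDK1, the kinase that switches off pyruvate dehydrogenase, had -0.32 (SE 0.14), with ratios of -0.13, -0.72, 0.00 and -0.45. ALDOC, an aldolase, had 0.63 (SE 0.26) and ratios of 0.65, 0.73 and 0.77 in MOLM-14, OCI-AML3 and MV4-11, while KG-1a was near the floor, at 0.418 CPM with darglitazone and 0.79 CPM with DMSO. The 13 hypoxia targets tested had a median of -0.05 and 0 members at an unadjusted p under 0.05.

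The first LDHA window (chr11:18394313-18394562, plus strand) is shown because hypoxia factors and MYC are known to act on this promoter. Capitals mark the hypoxia response core ACGTG and the E-box CACGTG on both strands. Of the 3 stretches in capitals, 2 are E-boxes that also hold the hypoxia core, and the third holds the hypoxia core alone. The second LDHA window (chr11:18396101-18396350, plus strand), not printed, held neither motif.
LDHA: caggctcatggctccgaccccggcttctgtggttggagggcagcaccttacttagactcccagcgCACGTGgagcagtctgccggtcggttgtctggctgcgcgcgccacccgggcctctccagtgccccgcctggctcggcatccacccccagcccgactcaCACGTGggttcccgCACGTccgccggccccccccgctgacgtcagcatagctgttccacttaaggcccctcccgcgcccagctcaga
The hypoxia core was in 14 of 22 glycolysis genes with a window (63.6%) and in 21.7% of all genes, and the E-box in 27.3% and 7.73%.

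ARRDC3, an arrestin-domain adaptor related to TXNIP and chosen by its p, had 8.43 CPM with darglitazone and 2.74 CPM with DMSO in MOLM-14, 6.02 and 4.74 CPM in OCI-AML3, 9.68 and 2.28 CPM in MV4-11, and 17.1 and 9.37 CPM in KG-1a. It was higher in each line, with a fold change of 1.21 (SE 0.33, edgeR adjusted p 1.0). The 4 tested genes listed as glucose sensors of this kind were negative, with a median of -0.16 and 0 members at an unadjusted p under 0.05. TXNIP, which binds thioredoxin and restrains glucose uptake, had -0.12 (SE 0.23). Its level in MOLM-14 was 84.2 CPM with darglitazone and 152 CPM with DMSO, whereas the ratios in OCI-AML3 and MV4-11 were 0.27 and 0.20.

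The receptor named for this drug class was barely expressed. PPARG had 0.533, 1.09, 0.426 and 0 CPM with darglitazone, against 0.397, 1.36, 0.517 and 0 CPM with DMSO, and was too low to be tested. PPARA, a sister receptor that governs fatty acid oxidation in liver, had a fold change of 0.41 (SE 0.24). PDK4 and FABP4, textbook PPAR targets, were at 0 counts in all 8 libraries. ANGPTL4, another, reached 5.64 CPM with darglitazone and 12.9 CPM with DMSO in KG-1a and at most 0.0661 CPM in the other lines. PLIN2, which coats lipid droplets, had 0.15 (SE 0.33), with ratios of 0.39, 0.08, 1.25 and -0.76. Of 27 PPAR targets tested, 12 were positive and 15 negative, with a median of -0.06, and 4 were above 0 in each of the 4 lines, where 7.07% of all genes were.

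The 11 tested PPAR and RXR receptor genes had a median of 0.01. The 4 PPAR targets at an unadjusted p under 0.05 were all higher, where 1.76% of all genes were, and 3 of them serve the entry of fatty acids into mitochondrial oxidation. ACADVL, the dehydrogenase for very long chains, had 315 CPM with darglitazone and 243 CPM with DMSO in MOLM-14, 337 and 229 CPM in OCI-AML3, 480 and 404 CPM in MV4-11, and 113 and 90.1 CPM in KG-1a, a fold change of 0.38 (SE 0.11). In KG-1a its ratio was 0.33 as counted and 0.14 after subtraction. CPT1A, the carnitine transferase that admits long chains, had 0.37 (SE 0.13), with ratios of 0.71, 0.46, 0.43 and -0.12. SLC25A20, the carnitine carrier, had 0.34 (SE 0.15) and was above 0 in each line. The fourth was ABCA1, the cholesterol exporter, at 0.93 (SE 0.41), which in OCI-AML3 stood at 15.2 CPM with darglitazone and 2.80 CPM with DMSO. Its fold change was 0.34 without the OCI-AML3 darglitazone library. Fatty acid oxidation genes had 18 positive of 24 and a median of 0.10, with ACOX3, a peroxisomal oxidase, at 0.41 (SE 0.17) as the further member at an unadjusted p under 0.05. Its KG-1a ratio was 1.0.

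Cholesterol synthesis genes had a median of 0.17, with 20 of 24 positive, 11 above 0 in each line, where 7.07% of all genes were. Only 1 had an unadjusted p under 0.05 with a higher value, near the share of 1.76% over all genes. For fatty acid synthesis the median was 0.13, with 13 of 15 positive. Of the genes for mitochondrial proteins that glitazones are known to bind, CISD1, which encodes mitoNEET, had 0.13 (SE 0.16), and MPC1, a subunit of the pyruvate carrier, had -0.11 (SE 0.16). STAT5A, a signalling factor that pioglitazone is known to lower in chronic myeloid leukaemia cells, had 0.30 (SE 0.13), with ratios of 0.25, 0.47, 0.56 and -0.04. STAT5B had 0.21 (SE 0.11) and CITED2, a regulator of stem cell quiescence, -0.20 (SE 0.16). EPAS1, the gene of the hypoxia factor HIF2α, was 16.2 CPM with darglitazone and 15.3 CPM with DMSO in MOLM-14 and under 3 CPM in the other lines.

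Genes of cell division were lower. All 30 genes of G2 and mitosis had a negative fold change, with a median of -0.38. Of these, 15 had an unadjusted p under 0.05, where 1.65% of all genes did in that direction, and 18 were below 0 in each line, where 7.03% were. All 30 were lower in MOLM-14, in OCI-AML3 and in MV4-11, whereas KG-1a had 12 higher and 18 lower. The medians were -0.20, -0.98, -0.33 and -0.09, with the lowest in OCI-AML3. The median of the fitted values was -0.28 without its darglitazone library and -0.17 without its DMSO library. In bulk samples, fewer dividing cells and less of these transcripts per cell cannot be told apart.

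CDC20, the activator of the anaphase-promoting complex, had 170 CPM with darglitazone and 206 CPM with DMSO in MOLM-14, 107 and 217 CPM in OCI-AML3, 104 and 160 CPM in MV4-11, and 90.9 and 117 CPM in KG-1a. Its fold change was -0.59 (SE 0.16). CCNB1, cyclin B1, had 99.3 CPM with darglitazone and 113 CPM with DMSO in MOLM-14, 58.3 and 173 CPM in OCI-AML3, 72.5 and 93.4 CPM in MV4-11, and 62.1 and 85.7 CPM in KG-1a, a fold change of -0.66 (SE 0.20). HMMR, a spindle protein gene, had -0.57 (SE 0.20), with its lowest ratio, -1.38, in OCI-AML3. MKI67, the proliferation marker Ki-67, differed in its pattern, with ratios of -0.57, -0.14, -0.65 and -0.13 and a fold change of -0.39 (SE 0.14). UBE2C, a ubiquitin enzyme of the same complex, chosen after its values were seen, had 3.97 CPM with darglitazone and 0.452 CPM with DMSO in KG-1a, a ratio of 2.87 that was 0.00 after the other lines' reads were subtracted. With that subtraction the KG-1a median of the list was -0.18.

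The CDC20 window (chr1:43358731-43358980, plus strand) is shown because it holds both motifs for which genes of this group are known. Capitals mark the cell cycle homology region TTTGAA and the CCAAT box, on both strands.
CDC20: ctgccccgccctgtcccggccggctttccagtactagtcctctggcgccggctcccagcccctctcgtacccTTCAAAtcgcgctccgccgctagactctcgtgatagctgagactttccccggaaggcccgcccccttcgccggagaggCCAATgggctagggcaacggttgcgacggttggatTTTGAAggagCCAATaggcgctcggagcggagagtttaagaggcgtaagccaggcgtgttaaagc
TTTGAA was in 14 of 25 G2 and mitosis genes with a window (56.0%) and in 16.1% of all genes. CCAAT was in 23 of 25 (92.0%) and in 37.0% of all genes. It was as frequent in endoplasmic reticulum chaperone genes (18 of 18) and replication-dependent histone genes (40 of 46), but not in glycolysis genes (40.9%) or NRF2 targets (40.0%). The CCNB1 window, also searched, held CCAAT but not TTTGAA.

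Genes made in S phase were divided. Replication-dependent histone genes, whose transcripts lack a poly(A) tail and are captured by this kind of library, had 49 of 50 negative, a median of -0.37, 26 at an unadjusted p under 0.05, where 1.65% of all genes were lower, and 31 below 0 in each line, where 7.03% were. H2AC4 had 91.0 CPM with darglitazone and 124 CPM with DMSO in MOLM-14, 63.5 and 162 CPM in OCI-AML3, 47.6 and 73.8 CPM in MV4-11, and 41.6 and 50.1 CPM in KG-1a, a fold change of -0.71 (SE 0.21). H3C3 had -0.75 (SE 0.22), but in MOLM-14 it was at 0 counts with darglitazone and 0.0661 CPM with DMSO. Histone genes are near-identical copies, so the split of reads between them is uncertain. The histone medians were -0.11, -0.64, -0.47 and -0.18 in the 4 lines. Genes of the G1/S transition and replication had a median of -0.12, with 22 of 29 negative and an OCI-AML3 median of 0.15. The 24 p53 targets had a median of -0.05, with 11 positive and 13 negative. Other genes of division came out of the rule on smallest p: SGO2, which guards centromere cohesion, had -0.70 (SE 0.18), HMGB3, a chromatin protein, -0.54 (SE 0.14), and FAM72B -0.91 (SE 0.29), and each was lower in all 4 lines. FAM72B has near-identical relatives, so its counts are uncertain.

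Chaperones were lower as well, by small amounts. Of 19 endoplasmic reticulum chaperone and folding genes 15 were negative, the median was -0.19, 6 had an unadjusted p under 0.05 with a lower value, where 1.65% of all genes did, and 0 with a higher one. Of the 19, 8 were below 0 in all 4 lines at once, where 7.03% of all genes were. HSPA5, the master chaperone BiP, had 59.2 CPM with darglitazone and 83.7 CPM with DMSO in MOLM-14, 108 and 153 CPM in OCI-AML3, 79.9 and 102 CPM in MV4-11, and 40.7 and 49.0 CPM in KG-1a. Its fold change was -0.41 (SE 0.14). HSP90B1, the chaperone GRP94, had -0.37 (SE 0.13), with a ratio of -0.95 in OCI-AML3 and between -0.26 and -0.13 elsewhere, and PDIA6, a disulfide isomerase, had -0.30 (SE 0.10). Heat shock genes had 13 of 16 negative and a median of -0.13, with HSPA8 at -0.22 (SE 0.08), HSP90AA1 at -0.25 (SE 0.11), HSPE1 at -0.52 (SE 0.21) and CHORDC1 at -0.40 (SE 0.15). These 4 were the members at an unadjusted p under 0.05, where 1.65% of all genes were lower, and each was lower in all 4 lines.

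**Figure D3:**
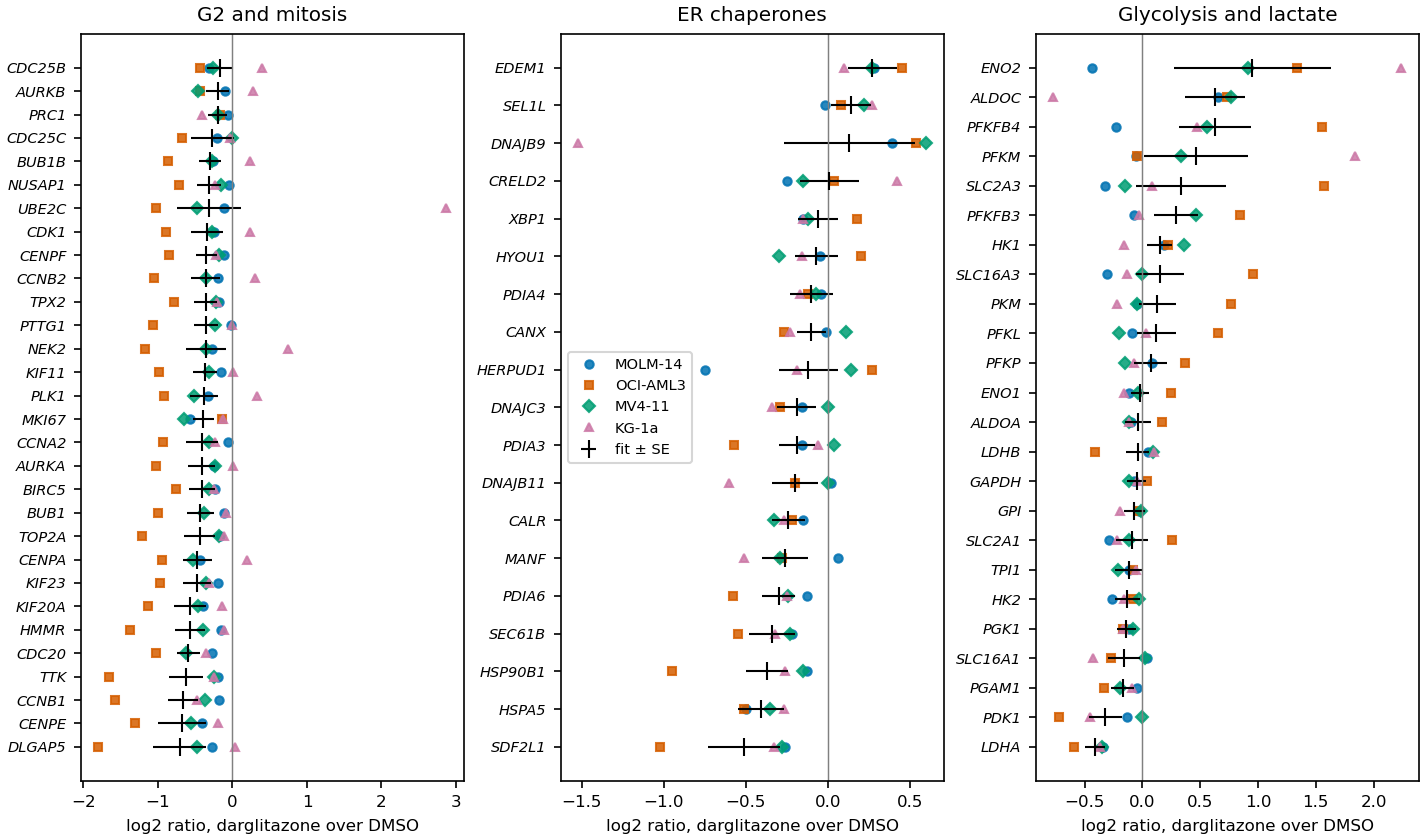
Log2 ratio of darglitazone over DMSO for each tested gene of G2 and mitosis, of endoplasmic reticulum (ER) chaperones and of glycolysis and lactate. Coloured points are the 4 lines, black marks with bars the fitted fold change ± SE. All 30 mitotic genes have a fitted value below 0 with most OCI-AML3 points furthest left, and LDHA is the lowest of the glycolysis genes at -0.41.

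Transcripts of the mitochondrial genome were mostly higher in the fit, but not in OCI-AML3. Of 13 genes 12 had a positive fold change, with a median of 0.20. At an unadjusted p under 0.05 there were 3 with a higher value, where 1.76% of all genes were. The line medians were 0.11, -0.12, 0.48 and 0.50, and in OCI-AML3 10 of the 13 were lower. Only 1 of the 13 was above 0 in all 4 lines, near the share of 7.07% over all genes. MT-CO1, a subunit of cytochrome oxidase, had 1110 CPM with darglitazone and 977 CPM with DMSO in MOLM-14, 952 and 686 CPM in OCI-AML3, 826 and 534 CPM in MV4-11, and 1180 and 832 CPM in KG-1a, a fold change of 0.45 (SE 0.13). MT-CO3 had 0.28 (SE 0.11), with a ratio of -0.07 in OCI-AML3. ATP5MC1, a nuclear gene for the membrane ring of ATP synthase, ran the other way in each line, with a fold change of -0.42 (SE 0.12). The share of counts in mitochondrial ribosomal RNA, which removal of ribosomal RNA can affect, was 7.76% with darglitazone and 7.25% with DMSO in MOLM-14, 6.79% and 6.75% in OCI-AML3, 9.87% and 6.83% in MV4-11, and 13.3% and 10.02% in KG-1a. The shares differed most in MV4-11 and KG-1a, where the mitochondrial genes had the largest medians, and their part in the result was not tested. The list median was 0.08 without the KG-1a darglitazone library and 0.10 without the MV4-11 DMSO library.

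Among the remaining genes with the smallest p and the same sign in all lines, ATG16L2, an autophagy gene, had the least spread. Its ratios were 0.38, 0.44, 0.42 and 0.47 and its fold change 0.43 (SE 0.11, edgeR adjusted p 1.0). MAN2A2, a Golgi mannosidase, had 0.42 (SE 0.11), and TUBGCP6, a part of the microtubule nucleating complex, 0.46 (SE 0.13). CDC42BPB, a kinase of the cytoskeleton, had 0.99 (SE 0.27) at 0.403 to 27.7 CPM. HSPG2, which encodes perlecan, had 0.72 (SE 0.18), but its KG-1a ratio was 1.20 as counted and -0.36 after subtraction of the other lines' reads. Among the lower genes, the amino acid transporter gene SLC38A5 had -0.45 (SE 0.14) and PRSS57, a neutrophil serine protease gene, -0.36 (SE 0.11).

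OCI-AML3 showed a set of differences that the other lines did not have to the same size. With 1 library per line and treatment the difference between lines was not tested. The 23 tested genes of NF-kB signalling and inflammatory cytokines had a median ratio of 1.53 in OCI-AML3, where 23 of 23 were higher, against -0.14 for MOLM-14, 0.02 for MV4-11 and 0.00 for KG-1a. The 19 immediate early genes had medians of -0.05, 1.09, -0.05 and 0.00, and the 33 genes of the integrated stress response -0.09, 0.98, -0.05 and -0.02. The medians of the fitted fold changes were 0.44, 0.20 and 0.25 for the 3 lists and -0.06, -0.05 and -0.05 without the OCI-AML3 darglitazone library. Without the OCI-AML3 DMSO library they were 0.09, -0.06 and 0.03, so each rests on that line. Among lists not described above, interferon-stimulated genes had a median of 0.12, the BCL2 family -0.01, LXR targets 0.16 and myeloid transcription factors 0.01.

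CXCL8, the neutrophil attractant interleukin 8, was at 458 CPM with darglitazone and 87.6 CPM with DMSO in OCI-AML3. IL1B, interleukin 1 beta, was at 45.5 and 4.73 CPM there, and TNF, tumour necrosis factor, chosen after its values were seen, at 318 and 39.9 CPM. ICAM1, an adhesion molecule, had 11.9 CPM with darglitazone and 0.492 CPM with DMSO, a log2 ratio of 4.33, while MOLM-14 and KG-1a held 38.2 and 52.2 CPM with darglitazone and 38.0 and 60.4 CPM with DMSO. In MOLM-14 IL1B had a ratio of -1.32 at under 1 CPM. CXCL8 in MV4-11 had one of -1.22 as counted and -0.32 after the other lines' reads were subtracted. In KG-1a CXCL8 was at 2.72 CPM with darglitazone and 0.339 CPM with DMSO, and that DMSO level rests on 3 counts. TNFAIP3 and TNFAIP2, 2 of the 23 in this list, had an unadjusted p under 0.05, where 1.76% of all genes were higher, with fold changes of 0.44 (SE 0.19) and 0.47 (SE 0.21).

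EGR1, an immediate early transcription factor, was at 44.9 CPM with darglitazone and 2.83 CPM with DMSO in OCI-AML3, and its ratios in MOLM-14 and MV4-11 were -0.88 and -0.60. GDF15, a stress cytokine, was at 27.6 and 1.94 CPM in OCI-AML3 and under 1 CPM in every other library of this comparison. Of the stress response transcription factors, ATF4, chosen after its values were seen, had 1150 CPM with darglitazone and 488 CPM with DMSO in OCI-AML3, and line ratios of -0.13, 1.23, 0.09 and -0.02. DDIT3, its target CHOP, had a fold change of 0.94 (SE 0.33), with ratios of 0.05, 1.89, 0.34 and 1.5, and CEBPB had 0.65 (SE 0.23), higher in all 4 lines. DDIT4, an inhibitor of mTORC1, had a ratio of 2.42 in OCI-AML3 and between -0.25 and 0.27 elsewhere. SARS1, the seryl-tRNA synthetase gene, had 0.36 (SE 0.13) and was higher in all 4 lines. The OCI-AML3 genes with the largest ratios also included LFNG, a Notch modifier, at 19.7 CPM with darglitazone and 1.06 CPM with DMSO, and PDGFA, a growth factor, at 23.2 and 1.70 CPM. PDGFA was much higher in MV4-11 and KG-1a, at 186 and 333 CPM with darglitazone and 481 and 422 CPM with DMSO.

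**Figure D4:**
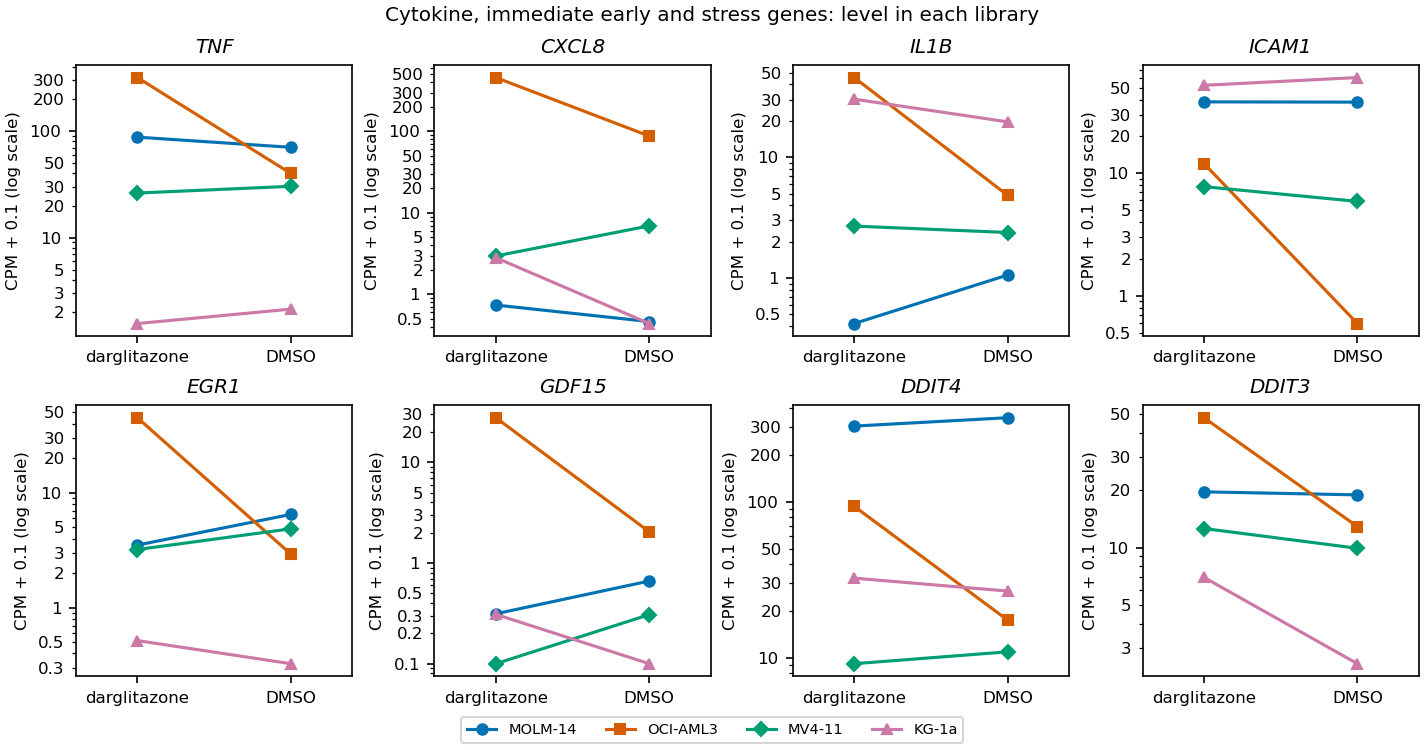
Level of 8 cytokine, immediate early and stress genes in each library, in CPM plus 0.1 on a log axis, with darglitazone on the left and DMSO on the right and a line joining the libraries of a cell line. In OCI-AML3 each of the 8 genes stood higher with darglitazone, with TNF at 318 against 39.9 CPM. For CXCL8 the KG-1a line slopes more, at 2.72 against 0.339 CPM, the latter from 3 counts.

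Large ratios were most frequent in KG-1a, the line with the shallowest darglitazone library. Log2 ratios above 1 and below -1 were seen there for 10.9% and 8.06% of tested genes. For OCI-AML3 the shares were 7.22% and 5.34%, for MV4-11 5.52% and 4.36%, and for MOLM-14 3.12% and 4.45%. In MV4-11 HMOX1 was among the 6 protein-coding genes with the largest positive ratio, at 3.15. GPM6A, a neuronal membrane protein gene, was among the 6 lowest there, at 8.74 CPM with darglitazone and 83.0 CPM with DMSO. In KG-1a the same gene stood at 256 CPM with darglitazone and 21.9 CPM with DMSO, the opposite order.

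**Figure D5:**
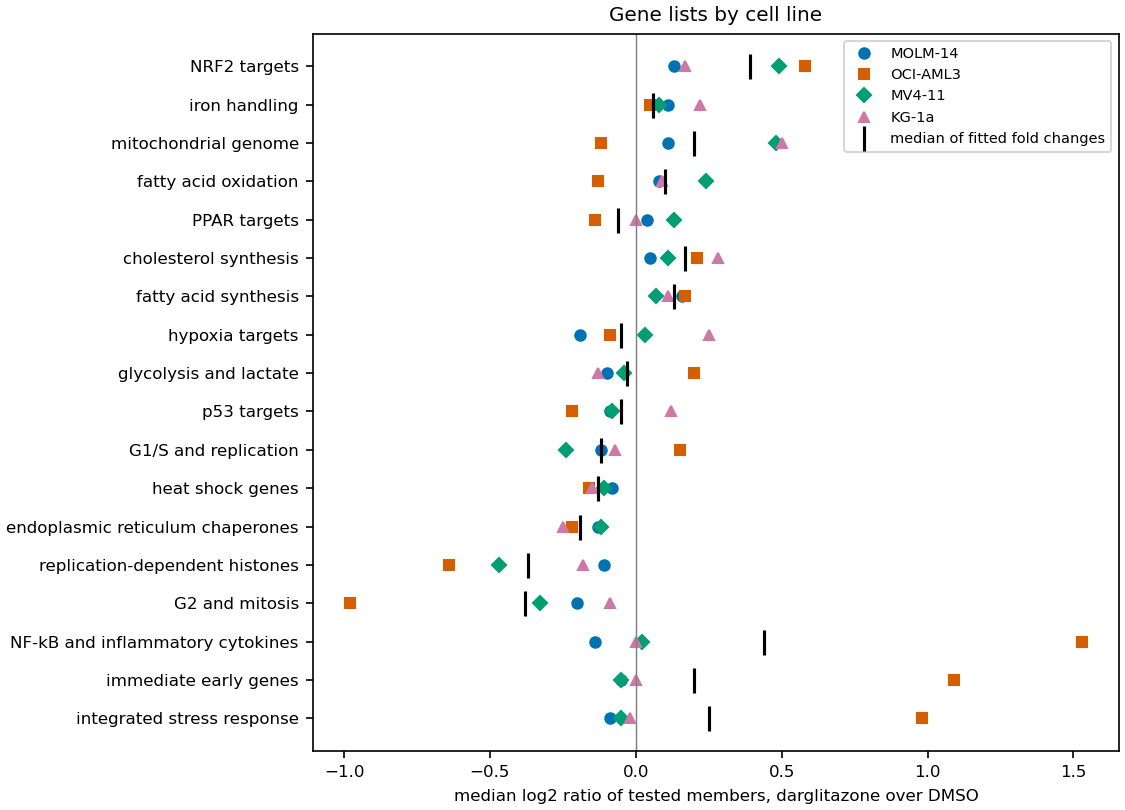
Median log2 ratio of darglitazone over DMSO over the tested members of 18 gene lists. Coloured points are single lines and black bars the median of the fitted fold changes. NRF2 targets lie right of 0 and mitotic genes left of 0 in all 4 lines, and the 3 lists at the bottom are shifted in OCI-AML3, to 1.53, 1.09 and 0.98.

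Pioglitazone, which shares the thiazolidinedione ring and differs in the rest of the molecule, was given at the same dose and time. In the direct test of darglitazone against pioglitazone, the only pair of compounds, edgeR called 0 of 15424 genes (0% called), with 541 at an unadjusted p under 0.05 (3.51%), 323 higher (2.09%) and 218 lower (1.41%), and DESeq2 called 0 higher and 12 lower. The 2 drugs share the DMSO libraries, and the pioglitazone library of OCI-AML3 held 1.1 M counts, and that of KG-1a had 23.537% of its counts in a ribosomal RNA entry. HMOX1 differed between darglitazone and pioglitazone by 0.25 (95% interval -0.55 to 1.05), FTL by 0.19 (0.00 to 0.38), NQO1 by 0.25 (-0.13 to 0.64), GCLM by -0.26 (-0.62 to 0.10) and SLC7A11 by -0.72 (-1.60 to 0.17). LDHA differed by -0.20 (-0.41 to 0.00) and MLC1 by -0.09 (-0.31 to 0.13). The interval of HMOX1 spans differences as large as 1.05, so it does not show that the drugs act alike on this gene. TXNIP differed by 0.86 (0.32 to 1.4, edgeR adjusted p 0.98), at 84.2, 88.7, 130 and 122 CPM with darglitazone and 101, 38.5, 56.4 and 48.8 CPM with pioglitazone. Histone genes had 49 of 50 positive differences with a median of 0.20 and 1 member at an unadjusted p under 0.05, where 2.09% of all genes were. For NRF2 targets the median difference was 0.09 and for mitotic genes 0.00.

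Cholesterol synthesis genes stood lower with darglitazone than with pioglitazone. Of 24 tested, 23 had a negative difference, the median was -0.50, and 18 had an unadjusted p under 0.05 with a lower value, where 1.41% of all genes did. HMGCS1, an early enzyme of the pathway, chosen after its values were seen, had 31.4, 62.0, 25.6 and 91.7 CPM with darglitazone and 34.3, 148, 73.7 and 282 CPM with pioglitazone. The difference was -1.17 (-1.70 to -0.64, edgeR adjusted p 0.98), while against DMSO HMGCS1 had 0.23 (SE 0.23). Fatty acid synthesis genes had a median difference of -0.39. Of 15 tested, 7 had an unadjusted p under 0.05 with a lower value, where 1.41% of all genes did. SCD, a fatty acid desaturase, had 945, 368, 353 and 320 CPM with darglitazone and 1100, 759, 835 and 512 CPM with pioglitazone. It was lower with darglitazone in all 4 lines, and the difference was -0.81 (-1.13 to -0.49, edgeR adjusted p 0.98).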

How the data were processed

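RNA was measured in 12 libraries of 4 leukaemia lines, of which 8 are reported here. The authors deposited estimated counts (expected counts) per transcript without normalization. Libraries were stranded total RNA with ribosomal RNA depleted, per the labels' protocols. The submitters' processing notes name GRCh38 with STAR, featureCounts, DESeq2, fastp and FastQC. The sources used here do not say which tool gave fractional counts. Of positive values, 89.8% were not whole at a tolerance of 1e-06.

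Of 203027 transcripts, 202941 (99.958%) matched GENCODE release 29. Counts were summed over 57865 genes and rounded. Coordinates are from that release. The main test was the robust quasi-likelihood F test of edgeR 4.0.16 (R 4.3.3) with cell line and treatment as terms, TMM scaling, filterByExpr by line (minimum count 10, minimum total 15), 12 libraries, 6 residual degrees of freedom, Benjamini-Hochberg adjustment and a threshold of 0.05. The lines pair the libraries by design. P-values rest on how much treatment differences varied from line to line, not on differences in level between lines. This spread was estimated over all 12 libraries, the pioglitazone ones included. CPM are on TMM-scaled library sizes, and single-line log2 ratios have a prior count of 2. DESeq2 1.42.0 and limma 3.58.1 were alternatives, next to other scaling, filters, libraries and prior counts. The edgeR step was run on simulated data with known changes, an equal spread for every gene and an equal response in each line. Those settings are simpler than these data, so that run does not speak for the results here. Reads of other lines were estimated from line-specific genes and, as an alternative, subtracted. Promoter windows are RefSeq's.

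The 33 gene lists and the members were chosen with earlier results of these data known, so lists are described and not tested. Named genes are the genes called by edgeR or DESeq2 at a mean log2 CPM of at least 1, the 12 protein-coding genes per direction with the smallest p and the same sign in all lines, up to 4 members per list with the smallest p, the 6 largest ratios per direction in each line (at least 10 CPM and 30 counts), and a preset list. Others are said to be chosen after their values were seen. 1 gene that the rule names is not reported here. Depth limits precision most in the KG-1a darglitazone library.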

Additional observations from a re-analysis of the deposited data

Results flagged for a closer look

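In each of 107 sets of 4 line ratios or list medians, the line farthest from the others was compared with the spread of the set, and in 11 sets the distance was larger than Dixon's 95% critical value. Chance alone marks about 1 set in 20 when sets are chosen without regard to their values. Many genes and the lists here were chosen with values of these libraries known. The number marked can therefore not be set against that rate. Of the 11, 9 concern OCI-AML3 and 2 concern KG-1a. The sets share libraries and some share genes, so they are not independent.

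In OCI-AML3 the list medians stood apart at 1.53 for NF-kB and inflammatory cytokines, at 1.09 for immediate early genes and at 0.98 for the integrated stress response. Single genes stood apart in the same line. ICAM1 had a log2 ratio of 4.33, SQSTM1 of 1.49, ATF4 of 1.23 and KEAP1 of 0.68. HSP90B1 had -0.95 and LDHA -0.59. The sign for LDHA and HSP90B1 was the same in all 4 lines. The OCI-AML3 libraries held 20.27 M counts with darglitazone and 64.24 M with DMSO.

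In KG-1a, ACOX3 stood apart at 1.0, with 21.1 CPM with darglitazone and 10.5 CPM with DMSO, and its ratio was 0.97 after subtraction of other lines' reads. ALDOC stood apart at -0.77, at 0.418 CPM with darglitazone and 0.79 CPM with DMSO, where a count of 3 is 0.629 CPM in the darglitazone library.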

How the results depend on the processing

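Without the filter on low counts edgeR called 42 genes higher and 34 lower against DMSO, and 46 and 42 against pioglitazone. DESeq2 called 4 and 2 against DMSO and 12 lower against pioglitazone. limma-voom called 4 and 2 against DMSO. The cause was not tested. With a replicate or a line left out, calls against DMSO ran from 0 to 3 higher, with 0 lower, and calls against pioglitazone from 0 to 2 in each direction. The 3 came without the OCI-AML3 darglitazone library and the 2 without the MOLM-14 libraries. Without the replicate block, which is the pairing by cell line, 0 genes were called in either direction. It moved the fatty acid synthesis median to 0.08. Without the low-count filter that median was 0.07, that of endoplasmic reticulum chaperones -0.25 and that of heat shock genes -0.19. With a library or line left out, medians ran from -0.06 to 0.19 for NRF2 regulators, -0.05 to 0.19 for iron handling, -0.09 to 0.09 for PPAR targets, 0.08 to 0.32 for cholesterol synthesis, 0.06 to 0.17 for fatty acid synthesis, -0.25 to -0.12 for endoplasmic reticulum chaperones and -0.19 to -0.08 for heat shock genes. Fold changes that turned sign in these fits ran from -0.10 to 0.85 for SLC7A11, -0.26 to 0.13 for TXNIP, -0.19 to 0.48 for PLIN2, -0.19 to 0.03 for MPC1, -0.08 to 0.87 for DDIT4, -0.08 to 0.20 for NFE2L2, -0.02 without the filter, and -0.03 to 0.45 for ATF4. HMOX1 ran from 1.89 to 2.60 (adjusted p over edgeR, DESeq2 and limma-voom fits 5.48e-05 to 1.0), FTL from 0.43 to 0.55, NQO1 from 0.67 to 1.02 and LDHA from -0.47 to -0.36. Depth limits low genes in KG-1a.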
